A study of Mus musculus with 8 samples.

Results

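Prss50 and 3 further serine proteases of the testis, Prss21, Prss39 and Prss40, were followed across 8 arrays of mouse testis RNA. The members were chosen by name, as 4 of the 21924 genes named by a probe set on the array. Prss50 was on the list because of its own difference between genotypes on these same arrays, so that difference is given below as a description and was not tested. The other 3 were listed as testis proteases. Each gene had 1 probe set. In the annotation Prss50 was written Tsp50, Prss39 Tesp1 and Prss40 Tesp2, and the last 2 were recognised by their Entrez gene numbers.

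The arrays held RNA of whole testis at postnatal day 23, of which 5 carry the label wildtype (replicates 1, 2, 4, 6 and 7) and 3 the label CTCFL mutant (replicates 3, 5 and 8). CTCFL, also called BORIS, is a zinc finger protein of premeiotic male germ cells and a paralog of CTCF. In the study's methods the mutants are homozygous for a Ctcfl allele that lacks exons 1 to 8 and carries a GFP coding sequence, on a C57/Bl6 background. The deletion was made by crossing to a chicken Actin-Cre transgene and is not limited to germ cells. The study's text calls the controls heterozygous littermates, but wildtype is the word of the labels and is kept below. Ctcfl RNA was not analysed here, and the labels were not checked against it.

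Trypsin-like serine proteases cut proteins with a serine in the active site, and the testis expresses many members found in few other tissues. Their transcripts appear in spermatocytes and spermatids, and several of the proteins reach the acrosome or the sperm surface, where they act in sperm maturation and fertilisation. PRSS50 is unusual in the family because a threonine stands where the catalytic serine would be. PRSS21, or testisin, is held to the sperm membrane by a lipid anchor. PRSS39 and PRSS40 are closely related proteins of the acrosome.

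The promoter of Prss50 is shown because the study's binding data, from ES cells made to express CTCFL, name Prss50 among the genes with the strongest CTCFL sites. The sequence is the 250 bases before the RefSeq start of the gene, at chr9:110857714-110857963 of GRCm38.p6 on the plus strand, 5′ to 3′, and the table lists a further start 3 bases downstream. Capitals mark a match to AGGGGGCGC, core letters of the vertebrate CTCF consensus.
Prss50: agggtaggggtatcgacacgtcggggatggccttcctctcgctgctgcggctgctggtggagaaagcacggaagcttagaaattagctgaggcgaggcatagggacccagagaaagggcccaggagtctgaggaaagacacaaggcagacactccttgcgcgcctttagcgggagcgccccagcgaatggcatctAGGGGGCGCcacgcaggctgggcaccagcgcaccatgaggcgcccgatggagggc

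The match lay at bases -55 to -47 from the start, on the plus strand. Both strands of a 300-base window per start were searched, with 50 bases after the start included. AGGGGGCGC was in 1.25% of 32851 such windows. The windows of Prss21, Prss39 and Prss40 did not hold it, nor did those of Prss42, Prss45 and Prss46, which lie in 1 row with Prss50. No result is given for Prss43 and Prss44, which belong to the same row. The motif was chosen with the study's binding data known, and a match of letters does not by itself show binding. In the study's band shifts, made in vitro, CTCFL and CTCF each bound a Prss50 promoter fragment. An oligonucleotide listed there for that fragment holds these letters. The study's ChIP data mark the Prss50 site as bound by CTCF too.

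Prss39 and Prss40 lie near each other on chromosome 1, and the last 100 bases before their starts are shown because they are alike. The first is chr1:34498312-34498411 on the plus strand and the second chr1:34560944-34561043 on the minus strand, both of GRCm38.p6. Capitals mark runs of 8 or more aligned bases that are the same in both.
Prss39: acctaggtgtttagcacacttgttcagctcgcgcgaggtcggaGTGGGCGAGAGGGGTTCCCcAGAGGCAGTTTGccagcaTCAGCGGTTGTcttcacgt
Prss40: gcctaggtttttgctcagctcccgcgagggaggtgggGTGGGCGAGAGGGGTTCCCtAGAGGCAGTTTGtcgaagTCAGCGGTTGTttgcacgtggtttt

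In a global alignment 77 of 106 columns were identical (72.6%), 42 of them in the capital runs. Over the 250 bases before the start, the identity was 56.4% for Prss39 and Prss40 and from 45.8% to 48.7% for the other 5 pairs among the 4 genes.

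A pair of arrays, wildtype replicate 7 and mutant replicate 8, differed from the rest. The first principal component held 44.9% of the variance and gave them scores of 40.2 and 38.2, against -24.8 to -3.10 elsewhere. Their 9 spermatid markers, among them the protamine Prm1 and the transition protein Tnp1, averaged 11.36 and 10.90 on the log2 scale, against 8.59 to 9.39 on the other arrays. All 9 spermatid and all 10 spermatocyte markers had levels above the median of all probe sets. At least 1 probe set of all 7 Sertoli, 6 of 7 spermatogonia, all 5 Leydig and all 4 peritubular markers was above it too, as were probe sets of Adipoq and Fabp4 among the 4 fat cell markers measured. Adipoq was higher on these 2 arrays than on the others of their genotype, by 1.95 and 2.25. Fabp4, which encodes a lipid-binding protein of fat cells, read 9.61 and 9.16 on them and 5.12 to 6.96 elsewhere by its 1 probe set above the median. The part of either marker in the results below was not tested. The differences, spreads and correlations of Prss50, Prss21, Prss39 and Prss40 are therefore also given without these 2 arrays.

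Prss50 transcript was lower on every mutant array than on any wildtype array. The log2 level was 7.79, 7.84, 7.92, 7.86 and 8.06 on wildtype replicates 1, 2, 4, 6 and 7. On mutant replicates 3, 5 and 8 it was 6.83, 7.04 and 7.37. The lowest wildtype value was thus above the highest mutant value, and the 3 mutant values were spread more widely than the 5 wildtype values. The means were 7.89 ± 0.11 (SD, n = 5) and 7.08 ± 0.28 (SD, n = 3). Their difference, which brought Prss50 onto the list, was -0.81 (SE 0.12) on the log2 scale, a level 1.76-fold lower in mutant testis. Over all 45101 probe sets, 0% passed an adjusted p of 0.05 with limma, 1.70% were lower in the mutant at an unadjusted p under 0.05, and 1.31% were lower without overlap between the groups (2.70% in either direction). Since Prss50 was chosen on this contrast, nothing is read from these shares. In whole testis RNA, fewer cells that express the gene and less RNA per cell cannot be told apart. By immunofluorescence on testis sections the study noted less PRSS50 protein per cell in the mutant, a measure of protein and not of RNA.

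**Figure D1:**
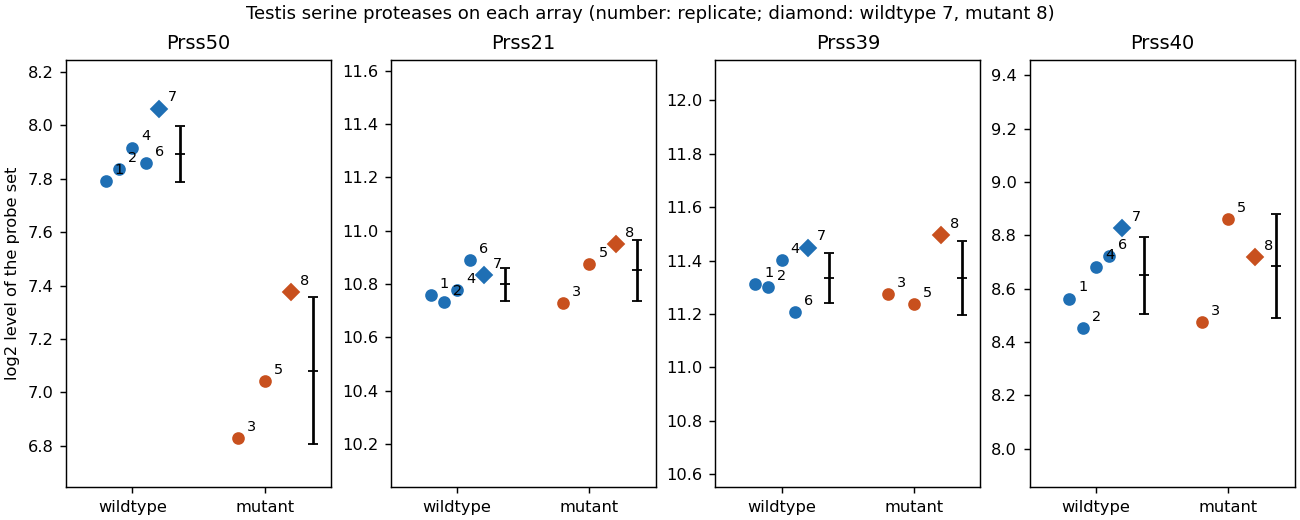
Log2 level of the probe set of each gene (vertical axis, the same span in each panel) on the 5 wildtype and 3 mutant arrays, with the replicate number beside each point, diamonds for wildtype replicate 7 and mutant replicate 8, and the mean ± SD at the right. Prss50 separates the genotypes, from 6.83 to 7.37 in the mutant against 7.79 to 8.06 in wildtype, while the 2 groups overlap for Prss21, Prss39 and Prss40.

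The groups of Prss50 do not overlap, so any split of the arrays gives a lower mutant level, and the sign was fixed in advance. The difference of Prss50 in both sets of arrays is thus only a description. With the pair left out it was -0.92 (4 wildtype and 2 mutant samples). Within the pair it was -0.69, with 1 array each and so no spread. Within each genotype the array rich in spermatid transcripts had the highest Prss50 level. Wildtype replicate 7 was 0.21 above the mean of the other wildtype arrays and mutant replicate 8 was 0.44 above that of the other mutant arrays.

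Prss50 followed the spermatid markers array by array within each genotype, a pattern noticed after the values were seen. From the lowest to the highest mean of the markers, the wildtype arrays were replicates 1, 2, 6, 4 and 7, and the Prss50 levels ran in that same order. The mutant arrays ran 3, 5, 8 by both measures. Such an order within both genotypes was found for 262 of 45101 probe sets, or 0.581%, among them 1 probe set each of Prss44, Spink2 and Zpbp from the lists below. With the group means removed, Prss50 and the marker mean had r = 0.90 over the 8 arrays, which is a description, with 6 of the points close together on the marker axis. For Prss39, Prss21 and Prss40 it was 0.80, 0.62 and 0.52. Without wildtype replicate 7 and mutant replicate 8, r over the other 6 arrays was 0.72 for Prss50, -0.080 for Prss39, 0.51 for Prss21 and 0.51 for Prss40, so the value of Prss39 rested on the 2 arrays. Mutant replicate 5, with a marker mean of 8.89, had a Prss50 level of 7.04, and wildtype replicate 1, with a marker mean of 8.72, had 7.79. With the marker mean as a covariate, a fit added after the values were seen, the difference of Prss50 was -0.79 (SE 0.07). Both are descriptions of the contrast on which Prss50 was chosen, and the part of spermatid content in it was not tested.

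**Figure D2:**
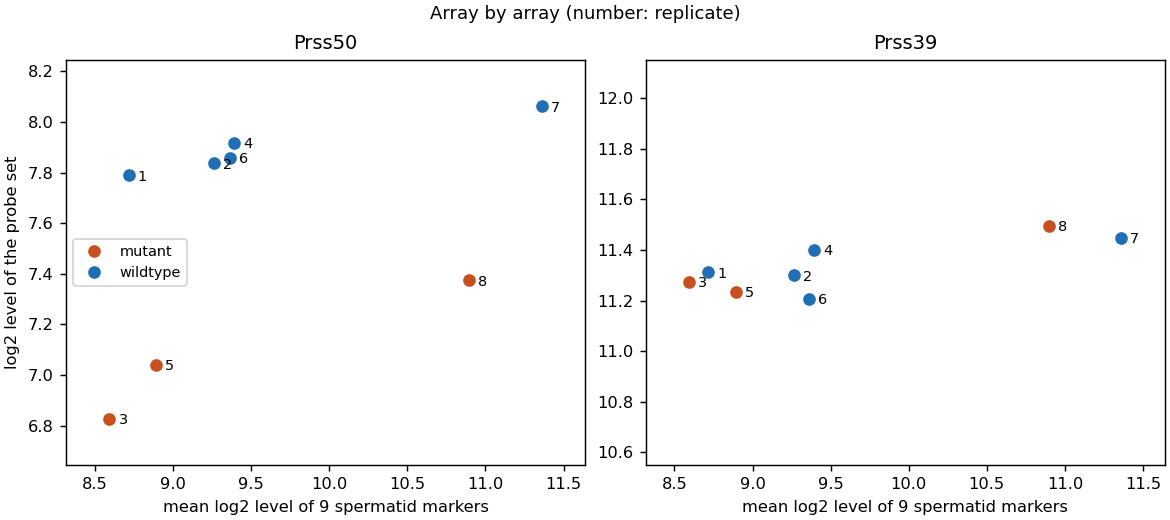
Log2 level of Prss50 (left) and Prss39 (right) against the mean log2 level of 9 spermatid markers on each array, with the replicate number beside each point. The mutant points of Prss50 lie below all its wildtype points, and the Prss39 points of both genotypes overlap. No array has a marker mean between 9.39 and 10.90, and only wildtype replicate 7 and mutant replicate 8 lie at the upper end.

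Markers of other cell types were compared between the genotypes in the same way, and their part in the level of Prss50 was not tested. Of 11 spermatocyte probe sets 8 were lower in the mutant. The mean of the 10 spermatocyte markers ranged from 11.91 to 12.09 in wildtype and from 11.78 to 11.95 in the mutant, so the groups overlapped. All 13 Sertoli probe sets were higher in the mutant, though 4 of them were of Clu, and 1 of these differed by only 0.00036. The mean of the 7 Sertoli markers was 8.75 to 8.83 in wildtype and 8.84 to 8.96 in the mutant. These ranges nearly touched, at 8.833 on wildtype replicate 4 and 8.840 on mutant replicate 8. Of the 13 probe sets, 0 were without overlap between the groups, beside 2.70% of all probe sets. All 9 Leydig probe sets and 9 of 12 spermatogonia probe sets were higher, with overlap of the marker means (10.12 to 10.55 against 10.30 to 10.86, and 7.95 to 8.08 against 7.99 to 8.23). Of the 16 spermatid probe sets all were lower in the mutant, with a median difference of -0.22 and marker means of 8.72 to 11.36 in wildtype and 8.59 to 10.90 in the mutant. The 8 peritubular probe sets were split evenly between the directions. Several markers had more than 1 probe set, so these counts are not of independent genes. The median difference over all probe sets was 0.0032. None of these marker probe sets passed an adjusted p of 0.05 with limma. At an unadjusted p under 0.05, which 3.47% of all probe sets passed, there were 2 of 11 spermatocyte probe sets, both lower in the mutant. They were those of Sycp1 at -0.25 (SE 0.08) and Hormad1 at -0.19 (SE 0.08). There were also 2 of 12 spermatogonia, 1 of 13 Sertoli and 2 of 9 Leydig probe sets, all higher, and none of the spermatid and peritubular ones. Sycp1 was the 1 of 11 spermatocyte probe sets without overlap, where 1.31% of all probe sets were lower without overlap. Of the 9 Leydig probe sets 1 was without overlap, where 1.38% of all were higher without overlap. It was a probe set of Cyp11a1 at a low level, higher by 0.30 (SE 0.09), and the other probe sets of that gene overlapped. No other of these marker probe sets was without overlap.

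Prss21, Prss39 and Prss40 did not separate the genotypes. Prss21 had log2 levels of 10.76, 10.73, 10.78, 10.89 and 10.83 on wildtype replicates 1, 2, 4, 6 and 7, and of 10.73, 10.87 and 10.95 on mutant replicates 3, 5 and 8. The mutant values enclosed the wildtype values. The means were 10.80 ± 0.06 (SD, n = 5) and 10.85 ± 0.11 (SD, n = 3), a difference of 0.053 with a 95% interval of -0.11 to 0.22. The interval corresponds to 0.927 to 1.16 times the wildtype level, and the limma adjusted p over all probe sets was 1.0. The smallest limma adjusted p of any probe set, that of Prss50 included, was 0.999962. The adjusted p given here and below therefore does not set a gene apart from Prss50.

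Prss39 had the log2 levels 11.31, 11.30, 11.40, 11.21 and 11.45 on the wildtype arrays in the same order, and 11.27, 11.24 and 11.50 on the mutant arrays. The highest value of each genotype was on the array rich in spermatid transcripts. The means of 11.33 ± 0.09 (SD, n = 5) and 11.34 ± 0.14 (SD, n = 3) differed by 0.00087, with a 95% interval of -0.19 to 0.19 and a limma adjusted p of 1.0.

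Prss40 had levels of 8.56, 8.45, 8.68, 8.72 and 8.83 in wildtype and 8.47, 8.86 and 8.72 in mutant testis. Here mutant replicate 5 was the highest of all 8 arrays. The difference was 0.035, with a 95% interval of -0.21 to 0.28 and a limma adjusted p of 1.0. Without wildtype replicate 7 and mutant replicate 8, the differences of Prss21, Prss39 and Prss40 were 0.012, -0.051 and 0.062. The intervals leave room for small changes. The lower bounds of all 3 lie above the difference of Prss50. Since Prss50 was chosen on this contrast, nothing is read from that comparison.

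The 4 genes varied to different degrees among arrays of 1 genotype. The SD within groups was 0.18 for Prss50, 0.16 for Prss40, 0.11 for Prss39 and 0.083 for Prss21, beside a median of 0.13 over all probe sets. Without wildtype replicate 7 and mutant replicate 8 it was 0.088 for Prss50, 0.17 for Prss40, 0.070 for Prss39 and 0.079 for Prss21, beside a median of 0.11. Prss21 and Prss40 ran most alike of the 6 pairs, with r = 0.75 over the 8 arrays, and 0.89 over 6 without that pair of arrays. The other 5 pairs lay between -0.042 (Prss21 and Prss50) and 0.29 (Prss39 and Prss50) over 8 arrays, and between -0.60 (Prss21 and Prss39) and 0.39 (Prss39 and Prss50) over 6. The values with Prss50 carry its difference between genotypes.

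Of the other proteases of the testis, 12 of 15 listed genes had probe sets, 18 in all, and none passed an adjusted p of 0.05 with limma. At an unadjusted p under 0.05 there were also 0 of the 18, against 3.47% of all probe sets. Their median difference was 0.020, beside 0.0032 over all probe sets, with 10 higher and 8 lower. Without wildtype replicate 7 and mutant replicate 8 the median turned to -0.080. Prss43, Prss51 and Tmprss12 were not matched to a probe set.

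Acr, which encodes acrosin, the main protease of the acrosome, had levels from 11.11 to 11.25 in wildtype and from 11.16 to 11.23 in the mutant and differed by 0.019 (SE 0.06). Pcsk4, a proprotein convertase of spermatids, differed by -0.0016 (SE 0.16). Prss41, which lies near Prss21 on chromosome 17, had the lowest difference of the list on 1 of its probe sets, -0.24 (SE 0.11), with values of 6.95, 6.94, 7.06, 7.11 and 7.10 in wildtype and 6.78, 6.55 and 7.05 in the mutant. Mutant replicate 8 thus lay within the wildtype range, the unadjusted p was 0.0501 and the limma adjusted p was 1.0. The other probe set of Prss41, the one chosen by the naming rule, differed by -0.079 (SE 0.09).

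A further set of listed proteases was high on the 2 arrays rich in spermatid transcripts and not in 1 genotype. Prss55, a membrane-anchored protease of sperm, had levels of 7.16 to 7.55 on 4 wildtype arrays and 8.94 on replicate 7, and of 7.43, 7.09 and 8.69 on the mutant arrays. Prss37, which is needed for the maturation of the sperm protein ADAM3, was 1.69 above the other wildtype arrays on replicate 7 and 1.60 above the other mutant arrays on replicate 8. For Prss52 these departures were 1.95 and 1.24, and for Prss54 they were 0.86 and 1.28. For Prss50, Prss21, Prss39 and Prss40 they ran from 0.044 to 0.22 in wildtype and from 0.052 to 0.44 in the mutant. Prss45 was the exception in the other direction, at 8.74 on wildtype replicate 7 and 8.93 on mutant replicate 8 against 9.25 to 9.52 on the other arrays.

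**Figure D3:**
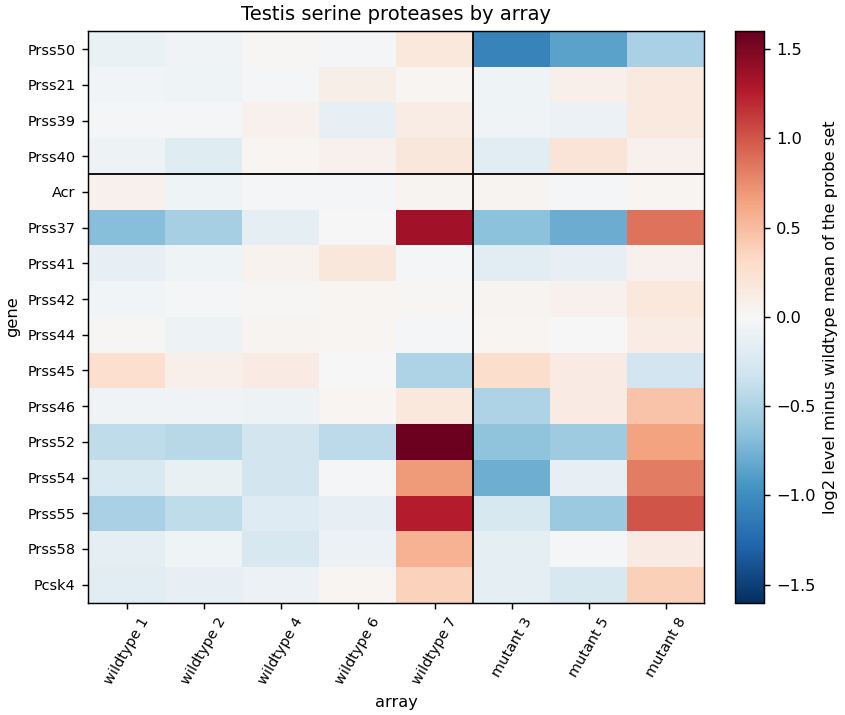
Log2 level minus the wildtype mean of the same probe set for Prss50, Prss21, Prss39 and Prss40 (above the line) and 12 further testis proteases (rows) on each array (columns). Prss50 is low across the 3 mutant columns, while Prss37, Prss52, Prss54 and Prss55 are high in the columns of wildtype replicate 7 and mutant replicate 8.

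Prss50 lies at the end of a row of testis proteases on chromosome 9, after Prss42, Prss44, Prss43, Prss45 and Prss46 in the RefSeq gene order. These neighbours encode testis serine proteases of the TESSP group. The 4 of these 5 neighbours with probe sets showed no drop with Prss50. Prss46, the next gene, had levels of 9.30 to 9.55 in wildtype and of 8.89, 9.51 and 9.84 in the mutant and differed by 0.033 (SE 0.17). Prss45 differed by 0.036 (SE 0.18). The 4 probe sets of Prss44 differed by -0.025 to 0.045. Prss42 was higher on each mutant array (9.62, 9.64 and 9.73) than on each wildtype array (9.52 to 9.60), by 0.094 (SE 0.06). It was the only 1 of the 18 listed testis probe sets without overlap, where 1.38% of all probe sets were higher without overlap, and its limma adjusted p was 1.0.

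Over the 10 genes measured on either side of Prss50, the 37 probe sets had a median difference of 0.010 and lay between -0.12 and 0.18. None passed an adjusted p of 0.05 with limma, and 1 of 37 passed an unadjusted p of 0.05, a share below the 3.47% of all probe sets. It was that of Rtp3, which was higher by 0.17 (SE 0.06) at low levels of 4.80 and 4.96. This neighbour was picked out after its value was seen. On the far side, Tmie, the next measured gene, had 3 probe sets with differences from -0.044 to 0.017.

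**Figure D4:**
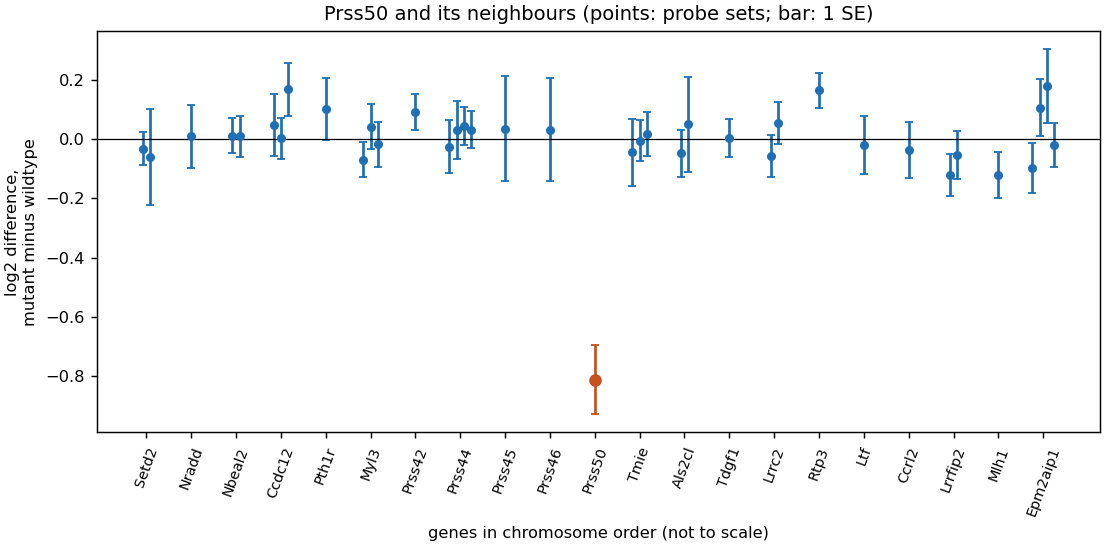
Difference in log2 level, mutant minus wildtype, with 1 SE, for Prss50 and for each probe set of the 10 measured genes before and after it, in chromosome order and not to scale. Prss50 lies at -0.81 and the 37 probe sets of its neighbours between -0.12 and 0.18.

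Partners and inhibitors of these proteases were measured by 19 probe sets of 13 genes, with none past an adjusted or an unadjusted p of 0.05 with limma and a median difference of 0.021. Acrbp, which binds proacrosin, differed by 0.077 (SE 0.12), and Spink2, an inhibitor of acrosin, by 0.021 (SE 0.07). The inhibitor Serpina5 differed by 0.15 (SE 0.10), the highest of the list. Spam1, a hyaluronidase of the sperm surface, differed by -0.23 (SE 0.32), the lowest, with values from 7.94 to 8.96 in wildtype and of 7.17, 8.18 and 8.67 in the mutant. Adam3, the sperm adhesion protein whose maturation needs PRSS37, differed by -0.035 (SE 0.08). Pdilp was not matched to a probe set.

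Serine proteases better known from somatic cells gave 19 probe sets of 13 genes, 10 higher and 9 lower, with a median difference of 0.0065. None passed an adjusted or an unadjusted p of 0.05 with limma. Furin, a proprotein convertase of the secretory pathway, had the highest difference, 0.19 (SE 0.09). Plat and Plau, the plasminogen activators, differed by 0.033 (SE 0.09) and 0.058 (SE 0.09). Prss35 was low on a single array, at 8.41 on mutant replicate 8 against 9.26 to 9.95 on the others. The kallikreins Klk21, Klk24 and Klk27 were not matched to a probe set.

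**Figure D5:**
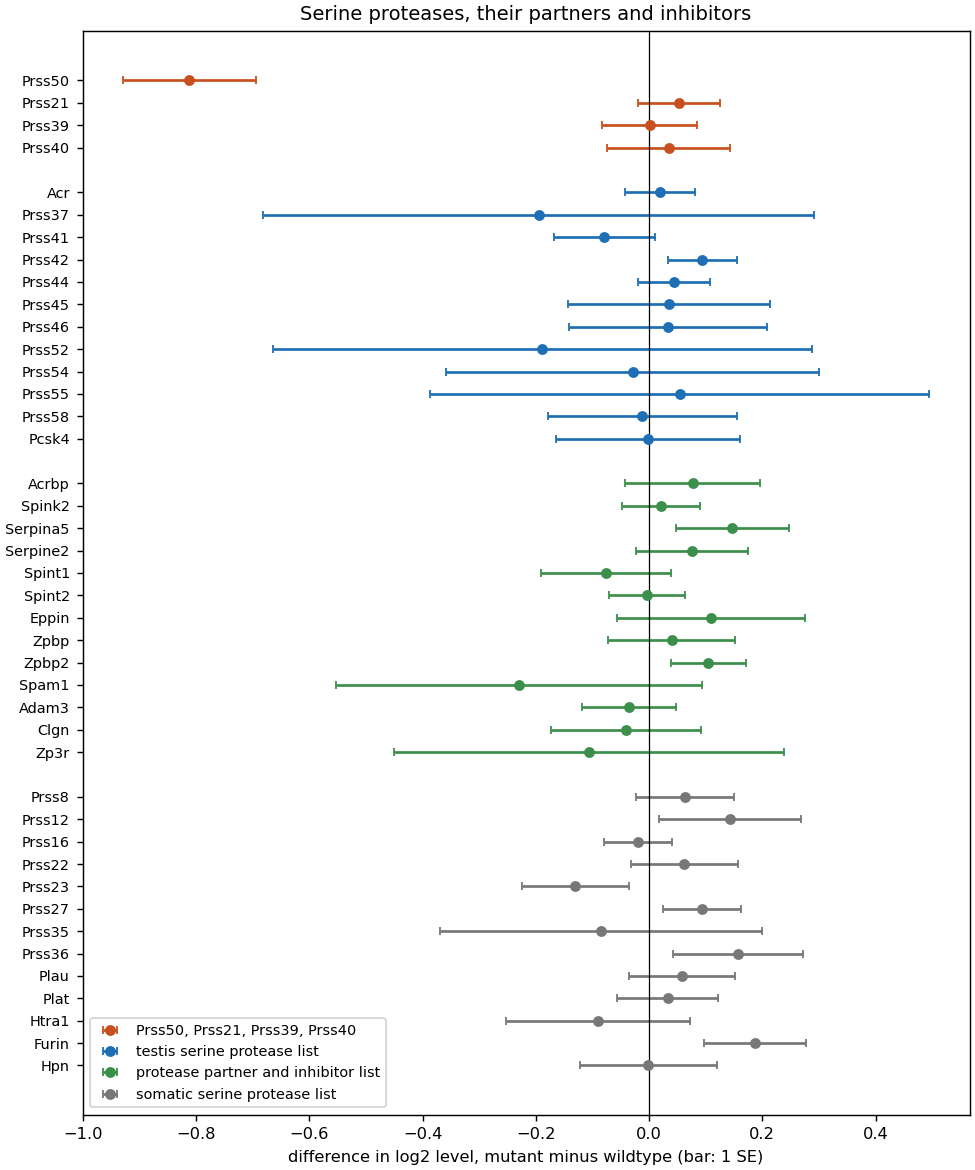
Difference in log2 level, mutant minus wildtype, with 1 SE, for the 4 genes and for 1 probe set of each gene in the lists of testis proteases, of partners and inhibitors, and of somatic serine proteases. Prss50 lies at -0.81, and the points of the other genes lie between -0.23 and 0.19.

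The genes whose levels ran most like Prss50 over the 8 arrays were Ddx39a (r = 0.94), Sptlc1 (0.94), Eif5 (0.91), 4930579G24Rik (0.91) and Setd4 (0.91). They were taken from probe sets above the median level, and all 5 were lower on each mutant array than on any wildtype array, as Prss50 was, so the shared contrast enters the likeness. Ddx39a, an RNA helicase, ranged from 11.59 to 11.79 in wildtype and from 11.38 to 11.44 in the mutant, a difference of -0.27 (SE 0.07). Sptlc1, a subunit of the enzyme that starts sphingolipid synthesis, differed by -0.25 (SE 0.07). The differences of Eif5, 4930579G24Rik and Setd4 were -0.084, -0.16 and -0.12. Each of the 5 had a limma adjusted p of 1.0.

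Most like Prss21 were Kif9 (r = 0.96), Morf4l1 (0.95) and Aldh3b2 (0.95), and most like Prss39 were Crtc2 (0.97), Tmem262 (0.96) and Brms1 (0.95). Most like Prss40 were Odf4 (0.97), a protein of the sperm tail, Gykl1 (0.97), a glycerol kinase expressed in testis, and Cdkn3 (0.96). These correlations are over 8 points each and were the highest of all candidates, so high values were bound to occur. Over the 6 arrays without wildtype replicate 7 and mutant replicate 8, r was between 0.87 and 0.99 for these 9 genes. For the 5 genes like Prss50 it was between 0.91 and 0.96. These 6 arrays are part of the 8 on which the genes were picked, so the values are no independent check.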

How the data were processed

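Per the labels and the study's methods, total RNA of testis was hybridised to Affymetrix Mouse430_2 arrays, 1 per sample, and the authors corrected background with RMA and normalised by quantiles. Each value of the deposited table is a normalised log2 level. Array medians lay between 6.40 and 6.45. Precision is limited by how many arrays there are. Versions and the build of the annotation are not given in the sources used here. The authors' own fold changes and p-values, which fill 2 further tables and the remaining columns, were not used.

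Sample titles gave genotype and replicate. The labels do not say that the samples are separate animals, so p-values measure the spread between these samples. Probe sets were named by Entrez number from RefSeq genes of GRCm38.p6. Of 38810 numbered probe sets, 35498 (91.5%) found a gene. That table also gave the gene order, and its companion promoter table the sequences, found for all 4 genes.

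All 45101 probe sets, unfiltered, entered 1 two-sided limma fit (lmFit, then eBayes; limma 3.58.1 under R 4.3.3), and p-values were adjusted over all of them by Benjamini-Hochberg. The fit was tested on simulated data. Sequences were aligned with biopython 1.88, and other steps used Python 3.11.15, numpy 2.4.6, pandas 2.3.3, scipy 1.17.1 and matplotlib 3.10.9.

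The genes, lists and motifs were chosen with earlier results of these data known. A gene with several probe sets is given by the one without a cross-hybridisation suffix, then with the highest mean level, unless stated. Genes named for likeness were the 5 for Prss50 and 3 for each other gene with the highest Pearson r among single-gene probe sets above the median level. They are given by the probe set with that r. For Ddx39a, Setd4, Kif9, Morf4l1 and Crtc2 it carries a cross-hybridisation suffix. Alternatives were leaving out each array, or wildtype replicate 7 and mutant replicate 8 together, a filter on level, other normalisations, other variance models, array weights and 1 probe set per gene. A covariate for spermatid markers was added after the data were seen. No other probe set existed for the 4 genes, and protein sequences were not used here.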

Additional observations from a re-analysis of the deposited data

Results flagged for a closer look

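Among the 5 wildtype arrays, 42 genes (Prss50, Prss21, Prss39, Prss40 and those of the 3 protease lists) were searched for single arrays lying at a distance. Chance flags about 1 in 20, or 2.1 here, and 6 stood out, all of them through a high value on wildtype replicate 7. The genes are not independent, so the 6 are not read against the 2.1. Wildtype replicate 7 was already seen to stand apart. Prss52 was at 6.76 there, with the nearest other wildtype array at 4.90. Prss55 was at 8.94 against 7.55 and Prss54 at 9.67 against 8.96. Prss58 was at 5.95 against 5.32, but its other probe set was at 4.59 there, within the 4.53 to 4.71 of the other wildtype arrays. Spam1 was at 8.96 against 8.17 and Adam3 at 12.41 against 12.19. The level of all of these is on the log2 scale, and none of Prss50, Prss21, Prss39 and Prss40 stood out. Mutant arrays, only 3, were not searched.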

How the results depend on the processing

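No paired analysis was possible because no replicate number occurs in both genotypes. Prss50 stayed lower in the mutant under all 16 alternatives, from -0.96 to -0.69, which is also its range on leaving out 1 array. Its groups do not overlap, so leaving out arrays could not change that sign. The filter on level and the other variance models leave the difference itself unchanged. The count of 16 is therefore no support for the difference. Prss21 kept its direction under all 16, from 0.0031 to 0.11, with limma adjusted p from 0.981 to 1.0. Prss39 reversed to -0.051 without wildtype replicate 7 and mutant replicate 8, to -0.0033 with arrays centred on their medians and to -0.024 with array weights. Leaving out 1 array gave -0.079 to 0.050, with reversals without wildtype replicates 1, 2 or 6 or mutant replicate 8. Prss40 ranged from -0.053 to 0.14 on leaving out 1 array and reversed without wildtype replicate 2 or mutant replicate 5. No direction is therefore given for Prss39 and Prss40.

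At an adjusted p of 0.05 the count of 0 (1564 at an unadjusted p) held except with the spermatid marker mean as a covariate, chosen after seeing the data, where limma called 1, that of Prss50. Prss50 was chosen on these arrays, so that call is no independent evidence. The unadjusted count of 1564 changed to 2956 without wildtype replicate 7 and mutant replicate 8, and to 707 above the median level, where fewer were tested. On leaving out 1 array it ranged from 1220 to 2649, the last without mutant replicate 8. The share of these that were higher in the mutant was 50.9%, and 60.4% without wildtype replicate 4 and 63.0% without mutant replicate 8. The median of the neighbours of Prss50 moved to -0.021 without wildtype replicate 7 and mutant replicate 8 and to -0.017 with array weights. Leaving out 1 array gave -0.016 to 0.017. The medians of the protease lists moved by less than the spread between arrays under each alternative, from -0.080 to 0.069 for testis proteases, from -0.014 to 0.072 for partners and inhibitors and from -0.023 to 0.058 for somatic ones, so none of them has a settled sign. The cause of these shifts was not tested.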
